A study of Mus musculus with 6 samples.

Results

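Interferon-stimulated genes are transcribed when a cell senses an interferon, and they were followed here as 39 named mouse genes out of the 18193 genes that had an array probe set naming them alone. The 39 were listed by symbol, as known targets of the interferon response, with earlier results of these data known. Of these, 34 passed the filter on dim signals (a mean log2 signal of 8.08 or more over the 6 arrays, a signal of about 271) and were tested. Oas3 and Mx2 lay below that filter. Oas1g, Ifi44 and Isg15, for which the annotation used here gave no probe set naming them alone, were not analysed here.

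The RNA came from alveolar type II cells, the surfactant-making epithelial cells of the lung, isolated from mice 2 months old and measured on Affymetrix arrays. Both groups lacked Insig2 (Insig2 -/-), both started from floxed alleles of Insig1, and both are labelled as treated with doxycycline between E6.5 and E12.5 of embryonic life. The deleted group (Insig1 ∆/∆) also carried SpC-rtTA, a doxycycline-dependent activator under the promoter of a surfactant protein gene of type II cells, and Otet-CRE, the recombinase it switches on. The control group (Insig1 flox/flox) lacked 1 or the other of these transgenes, so the complete Cre system and the loss of Insig1 cannot be told apart as sources of a difference. INSIG1 and INSIG2 hold back the activation of SREBP, the transcription factors of sterol and fatty acid synthesis, and the comparison asks what the loss of Insig1 adds where Insig2 is already absent. Each group had 3 independent pools of RNA, and p-values measure the spread between these pools. How many mice made up a pool is not stated in the sources used here.

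Type I interferons (alpha and beta) signal through the receptor chains IFNAR1 and IFNAR2, the kinases JAK1 and TYK2, and a complex holding STAT2 and IRF9 that binds the interferon-stimulated response element (ISRE) in promoters. Interferon gamma signals through IFNGR1 and IFNGR2 and the kinases JAK1 and JAK2 to promoters with the gamma-activated sequence (GAS), and it induces IRF1, which binds ISRE-like sites in turn. Products of the first arm, among them the IFIT, OAS and MX proteins, act on viral RNA and viral particles. The guanylate-binding proteins and the immunity-related GTPases, strongly induced by gamma, act on membranes that enclose pathogens. Both arms share many targets, and epithelial cells, macrophages and lymphocytes of the lung all express them.

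The promoters of genes from both arms carry the ISRE core. RefSeq promoters of assembly GRCm38.p6 (250 bases before to 50 after each start) were held for 31 of the 39 members, and were searched on both strands for the ISRE core GAAANNGAAA and for the GAS pattern TTCNNNGAA. The ISRE core was present in 18 of the 31 members and in 3.44% of all 32851 promoters, and the GAS pattern in 10 of the 31 and in 8.30% of all promoters. A member counted if any of its promoters matched, while the other share counts each promoter singly. The members were listed as known interferon targets, so these shares are a description and no test. All 4 GTPase genes had the ISRE core, as did 5 of the 8 IFIT, OAS and MX genes with a window, and 1 GTPase gene, Igtp, had a GAS match as well, just before its ISRE match. Below are the 110 bases before the start of the 4 GTPase genes, of Ifit1 and Oas1a as the IFIT and OAS genes compared with them, and of Irf1, the factor that links both elements. Each runs 5′ to 3′ on the strand of the gene, and capitals mark ISRE core matches on either strand (GAS matches for Irf1).
Gbp2 (chr3:142620553-142620662, plus strand): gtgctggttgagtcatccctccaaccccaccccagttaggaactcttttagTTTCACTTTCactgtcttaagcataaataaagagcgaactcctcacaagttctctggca
Gbp3 (chr3:142559934-142560043, plus strand): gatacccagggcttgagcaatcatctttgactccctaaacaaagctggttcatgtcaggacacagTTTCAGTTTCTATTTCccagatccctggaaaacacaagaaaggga
Igtp (chr11:58199446-58199555, plus strand): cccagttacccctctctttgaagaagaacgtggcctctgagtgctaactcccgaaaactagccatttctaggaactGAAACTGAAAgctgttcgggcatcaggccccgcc
Irgm1 (chr11:48871421-48871530, minus strand): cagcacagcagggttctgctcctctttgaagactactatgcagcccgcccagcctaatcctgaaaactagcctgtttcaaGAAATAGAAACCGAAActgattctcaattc
Ifit1 (chr19:34640779-34640888, plus strand): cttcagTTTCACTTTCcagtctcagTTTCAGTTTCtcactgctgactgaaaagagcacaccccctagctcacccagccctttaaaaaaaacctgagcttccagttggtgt
Oas1a (chr5:120907526-120907635, minus strand): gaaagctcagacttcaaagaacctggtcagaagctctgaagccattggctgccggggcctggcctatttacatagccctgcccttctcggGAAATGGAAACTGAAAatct
Irf1 (chr11:53769904-53770013, plus strand): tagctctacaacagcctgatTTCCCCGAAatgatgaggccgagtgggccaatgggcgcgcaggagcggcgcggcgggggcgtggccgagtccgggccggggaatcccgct
In Gbp3, Irgm1 and Oas1a 2 matches overlap, beginning at -45 and -39, at -30 and -24, and at -20 and -14 from the start. Ifit1 had 2 separate matches, at -104 and -85. Gbp2 and Igtp each had 1 match, at -59 and -34, and the GAS match of Irf1 began at -90. The ISRE core was found in 5 of the 9 members with a window whose deleted pools all lay above the controls, and in 10 of the 17 tested members with a window whose groups overlapped. A match of letters is a description of the sequence and no measure of binding.

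The arrays had been scaled to a trimmed mean of about 1500, with medians between 426 and 479. The Insig1 probe set read 2300.1, 3325 and 2959.5 in control pools 1, 2 and 3 and 1252, 1442 and 1750.4 in deleted pools 1, 2 and 3, a log2 fold change of -0.95 ± 0.18 (SE) with an adjusted p of 0.068 (limma). It passed in 3 of the 15 alternatives, with adjusted p from 0.026 to 0.049, and the sources used here do not say whether it lies in the deleted part. The brightest Insig2 probe set read 2626.5, 2277 and 1844 in the control pools and 2107, 1904.5 and 1930.5 in the deleted pools (-0.17 ± 0.16), although both groups are labelled Insig2 -/-. What that signal means for the genotype was not tested. Across all genes, 84 of 12952 (0.649%) passed an adjusted p of 0.05 in limma, 81 of them higher and 3 lower in the deleted pools. With single pools left out this count ran from 15 higher and 0 lower (without deleted pool 2) to 184 higher and 293 lower (without control pool 2). Control pool 3 stood apart on the first principal component, at -39.1 against -12.9 to 18.7 for the other pools. Sftpc, the defining type II gene, read 80089.5 or more in every pool. Of 18 macrophage markers 8 rose, with a median log2 fold change of 0.95 over all 18. The count of 8 was 4 without control pool 1, 0 without deleted pool 1 or 2, and 2 without deleted pool 3.

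Interferon-stimulated genes were not called in either direction: 0 of the 34 passed the adjusted threshold in limma, beside the 0.649% of all genes, and the smallest adjusted p was 0.11. At an unadjusted p under 0.05, 11 members were higher and 1 was lower, where 6.05% of all genes were higher and 6.02% lower. The count of 11 was 3 without deleted pool 3, 4 without control pool 1 and 6 without deleted pool 1 or deleted pool 2. Over all genes the same count also fell in those fits, from 784 to 562, 721, 586 and 524 in that order. The log2 fold changes (deleted minus control) ran from -0.40 to 0.76, with a median of 0.27 beside -0.0049 over all genes and a median SE of 0.18. They were positive for 24 members (70.6%) and negative for 10, where 49.1% of all genes were positive. All deleted pools lay above all control pools in 12 members (35.3%, all genes 9.2%) and below them in 1 (all genes 7.9%), together 38.2% beside 17.1% of all genes. The members were measured in the same pools and listed with earlier results of these data known, so these shares describe the list and are not a test of it. Beside their brightest probe set, 10 tested members had others past the filter (16 in all), of which 5, in 4 members, had the opposite sign.

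**Figure D1:**
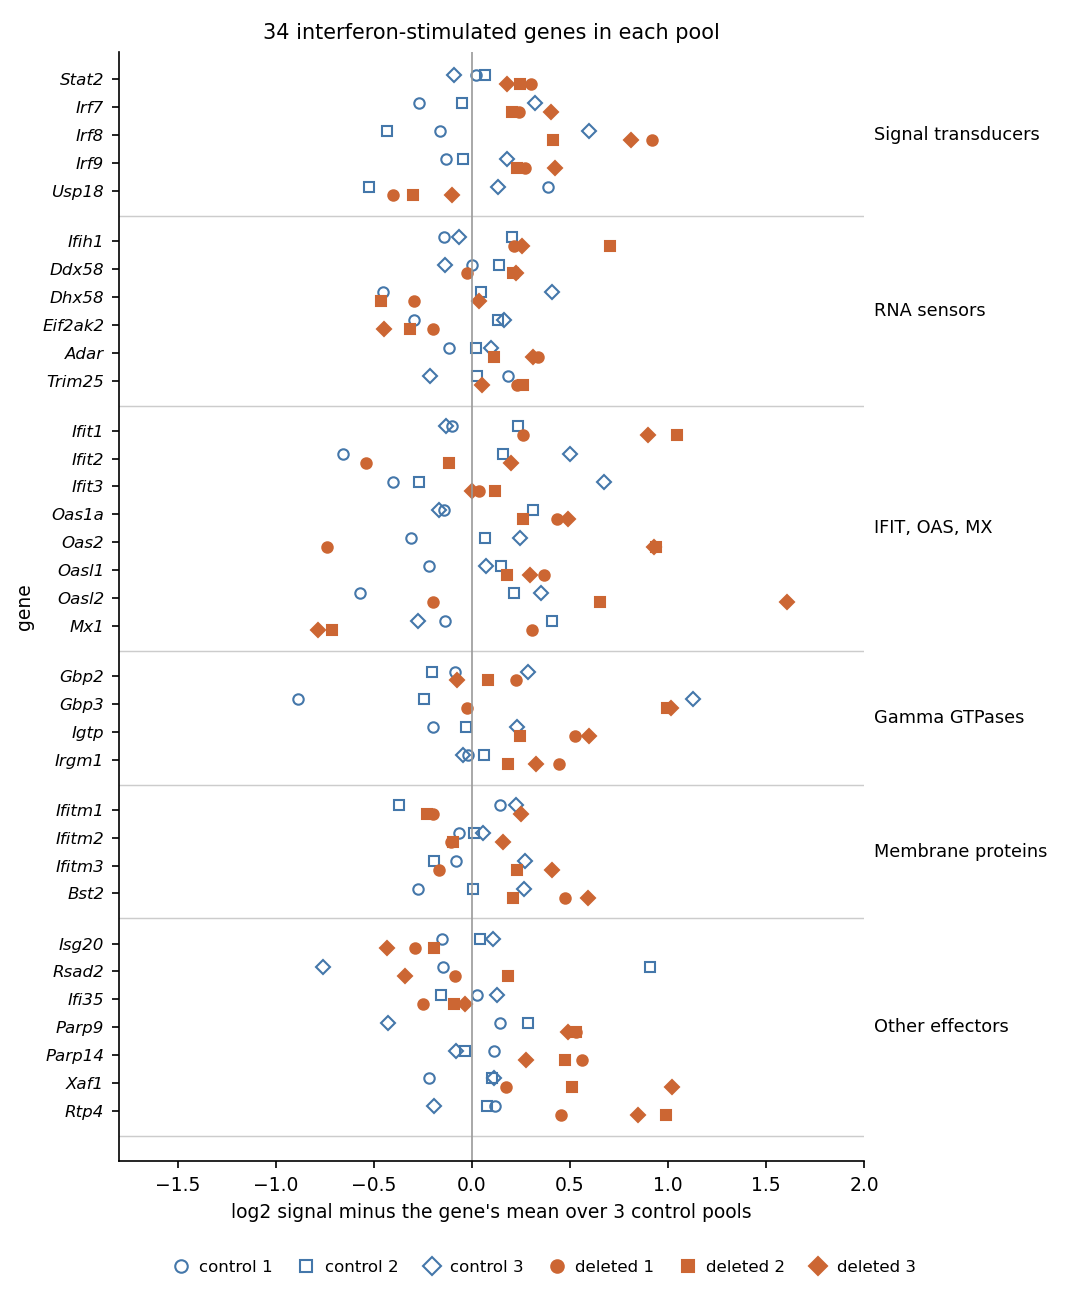
Log2 signal of each of the 34 tested genes in each of the 6 pools, minus that gene's mean over the 3 control pools, by role (open blue symbols control, filled orange symbols deleted, shape for the pool number). In 12 genes, Rtp4 and Ifit1 among them, all orange symbols lie to the right of all blue ones, and in Isg20 all lie to the left.

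**Figure D2:**
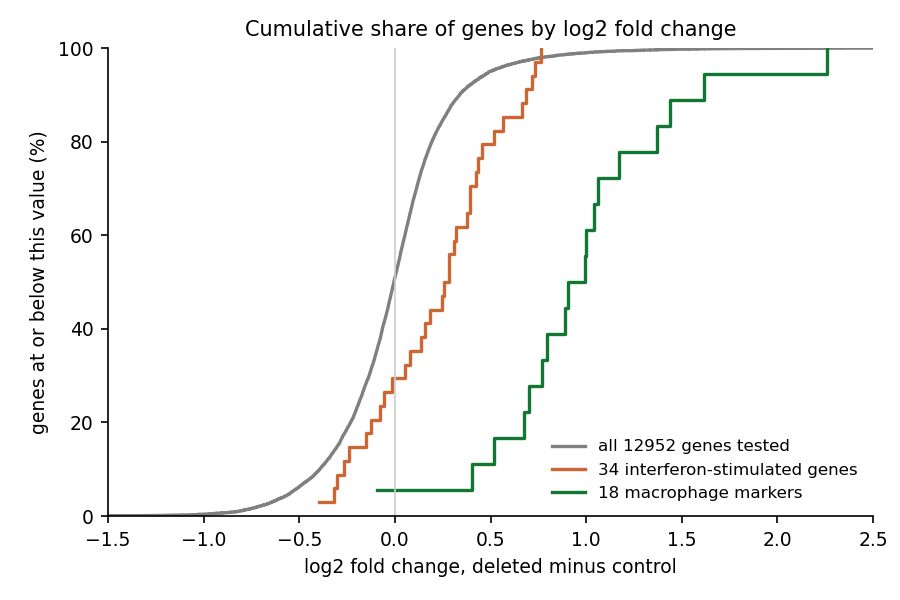
Cumulative percent of genes at or below each log2 fold change for all 12952 genes tested (grey), the 34 interferon-stimulated genes (orange) and 18 macrophage markers (green). The medians are -0.0049, 0.27 and 0.95, and the highest genes of the full set lie beyond the right end of the axis.

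The mean deviation of the 34 members from each gene's own mean over the 6 pools was -0.26, -0.08 and 0.0073 (log2) in control pools 1, 2 and 3, and 0.0023, 0.12 and 0.21 in deleted pools 1, 2 and 3. The groups touched, since control pool 3 lay above deleted pool 1. Over the macrophage markers the same measure was -0.69, -0.26 and -0.51 in the control pools and 0.52, 0.42 and 0.52 in the deleted pools, apart in all of them. Their part in the members' values was not tested. In isolates of this kind fewer cells of a type and less RNA per cell cannot be told apart. A shift of the arrays to a common median moved the median of all genes to 0.07 and that of the members to 0.35, and the all-gene split at an unadjusted p under 0.05 from 784 higher and 780 lower to 1106 and 406.

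Of the interferons themselves, few could be measured and none was called. Of 15 ligand genes 4 passed the filter, 5 lay below it, and 6 had no probe set naming them alone here. Ifna1, an alpha interferon, read 644, 652 and 769.6 in the control pools and 451, 481 and 519 in the deleted pools, every deleted pool below every control pool (-0.51 ± 0.20, adjusted p 0.37). Ifna2 was at -1.40 ± 0.60 and Ifnb1, the beta interferon, at -0.20 ± 0.34, both with overlapping pools. Ifng, the gamma interferon made by T and natural killer cells, read 197, 198 and 402 in the control pools and 164, 665 and 698 in the deleted pools. Its deleted pools 2 and 3 lay above all controls and its deleted pool 1 below them (0.76 ± 0.57, adjusted p 0.65). These 4 probe sets were dim, with SEs of 0.20 to 0.60.

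Among the receptors, kinases and factors that carry the signal, Irf1 rose. Irf1 encodes the transcription factor that relays the gamma signal. It was the 1 called of the 13 genes tested on this list of 14, beside 0.649% of all genes. It read 8650.1, 8592 and 8012 in control pools 1, 2 and 3 and 12199, 13187 and 12625 in deleted pools 1, 2 and 3, with the lowest deleted pool well above the highest control. The log2 fold change was 0.59 ± 0.10 (95% interval 0.37 to 0.81, adjusted p 0.038, limma). The call was lost without an intensity trend in limma's prior (adjusted p = 0.16), without control pool 1 (0.13) and without deleted pool 1, 2 or 3 (0.15, 0.26 and 0.21), while the log2 fold change stayed between 0.55 and 0.67. Ifnar2, a chain of the type I receptor, read 3266, 3389 and 2553 against 4086, 4476 and 4346 and Jak1, the kinase shared by both arms, 7315, 6470.4 and 8313 against 9425, 9074 and 8929.6. In both genes every deleted pool lay above every control pool, and neither passed the threshold (0.50 ± 0.14 and 0.32 ± 0.12, adjusted p 0.20 and 0.34). The median of the 13 genes was 0.08. What part other cells in the isolates have in the Irf1 values was not tested.

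The signal transducers among the members were mostly higher without a call. Of Stat2, Irf7, Irf8, Irf9 and Usp18, 4 were positive and the median log2 fold change was 0.28. Irf9, the DNA-binding part of the type I complex, read 2008, 2128 and 2488 in the control pools and 2653, 2583 and 2949.7 in the deleted pools (0.31 ± 0.13, adjusted p 0.40). Its partner Stat2 read 470.2, 485 and 435 in the control pools and 572, 549 and 525 in the deleted pools (0.24 ± 0.21, adjusted p 0.71). These were the 2 members of the group in which every deleted pool lay above every control pool. Irf7, which amplifies the production of alpha interferons, was at 0.28 ± 0.18 with overlapping pools, control pool 3 (1565) being above deleted pools 1 and 2 (1479 and 1446).

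Irf8, a factor of myeloid and B lineage cells as well as a gamma target, had the highest fold change of the transducers, and control pool 3 decided its call. It read 2636, 2184 and 4455 in control pools 1, 2 and 3 and 5573, 3928 and 5185 in the deleted pools, so control pool 3 lay above deleted pool 2. The log2 fold change was 0.72 ± 0.25 with an adjusted p of 0.31, and without control pool 3 it was 1.01 with an adjusted p of 0.024, a call. Calls over all genes also rose without control pool 3, from 81 higher and 3 lower to 160 and 12. Over the alternatives the adjusted p of Irf8 ran up to 0.62. A dimmer probe set of Irf8 did not show the difference, at -0.05. Control pool 3 was also the control with the highest mean deviation of the lymphocyte markers (0.54 beside -0.55 and -0.65), although not of each one. Cd3d, a chain of the T cell receptor complex, read 172, 207 and 1367 in the control pools and 1251, 766 and 962 in the deleted pools (adjusted p 0.43). Over the alternatives its adjusted p ran from 0.0065 (without control pool 3) to 0.71. Cd3e, another chain of that complex, was lowest in pool 3 of each group, at 709, 609 and 395 in the control pools and 767, 689.7 and 334 in the deleted pools. The part of these cells in the Irf8 values was not tested. Usp18, which removes ISG15 from proteins and dampens type I signalling, read 4048, 2157 and 3403 in the control pools and 2346, 2517 and 2888 in the deleted pools, within the control range (-0.27 ± 0.22).

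The sensors of foreign RNA were mixed. Of 6 genes 4 were positive and 2 negative, with a median log2 fold change of 0.16, and none was called. Ifih1, which encodes the long double-stranded RNA sensor MDA5, read 1415, 1802 and 1489 in the control pools and 1814, 2539 and 1863 in the deleted pools (0.39 ± 0.17, adjusted p 0.41). Adar, an RNA-editing enzyme that keeps the cell's own RNA from being sensed, read 2953, 3240.5 and 3418 in the control pools and 4048, 3459 and 3969 in the deleted pools (0.25 ± 0.12, adjusted p 0.44). In these 2 the pools did not overlap, although for Ifih1 the lowest deleted value (1814) and the highest control value (1802) nearly met. The other Adar probe sets past the filter had overlapping pools, at -0.16 and 0.04. Eif2ak2, the kinase PKR that halts translation, read 1296, 1744 and 1785 in the control pools and 1386, 1279.5 and 1169 in the deleted pools (-0.32 ± 0.17). Control pool 1 lay within its deleted range and the other controls above it. Ddx58 (RIG-I), its ubiquitin ligase Trim25 and the regulator Dhx58 (LGP2) were at 0.14, 0.18 and -0.24, all with overlapping pools. Averaged over all their probe sets, Eif2ak2 and Dhx58 turned positive, at 0.073 and 0.16.

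The IFIT, OAS and MX genes, the classic type I effectors, spread in both directions. Of 11 genes 8 were tested, 6 were positive and 2 negative, 0 were called, and the median log2 fold change was 0.33 over a range of -0.40 to 0.73. Ifit1, which binds viral RNA lacking the host's cap methylation, read 568, 718 and 556 in control pools 1, 2 and 3 and 730.1, 1259.5 and 1136 in the deleted pools. Deleted pools 2 and 3 stood well above all controls, and deleted pool 1 only just above control pool 2. The log2 fold change was 0.73 ± 0.24 (95% interval 0.19 to 1.28, adjusted p 0.29). In its relatives the groups overlapped: Ifit2 read 408, 718 and 911 in the control pools against 443, 594 and 740.2, and Ifit3 792, 869 and 1668 against 1076, 1138 and 1048. Their log2 fold changes were -0.15 ± 0.33 and 0.05 ± 0.27, and whether they differ from that of Ifit1 was not tested.

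The OAS enzymes make the oligoadenylates that switch on RNase L, an activity that OASL1 lacks. Oasl1 read 911, 1174 and 1114 in the control pools and 1369, 1203 and 1304 in the deleted pools, with no overlap (0.28 ± 0.16, adjusted p 0.53). Oas1a read 1088, 1489.8 and 1069 in the control pools and 1622, 1439 and 1685 in the deleted pools, control pool 2 lying above deleted pool 2 (0.39 ± 0.17, adjusted p 0.41). Oasl2 read 319, 552 and 608 in the control pools and 413, 748 and 1446 in the deleted pools, a wide spread led by deleted pool 3 (0.69 ± 0.44). Oas2 was at 0.38 ± 0.46, with deleted pool 1 below all controls and the other deleted pools above them. Mx1, a dynamin-like GTPase that blocks influenza viruses, read 434, 635 and 396 in the control pools and 592, 291 and 277 in the deleted pools. Deleted pools 2 and 3 lay below all controls and deleted pool 1 did not (-0.40 ± 0.35). The 2 dim genes, Oas3 and Mx2, had signals of 67.7 to 135.9 and 52.5 to 256.9 over the 6 pools, with the groups overlapping.

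The 4 GTPase genes of the gamma response were all positive and none was called, with a median log2 fold change of 0.39 over a range of 0.08 to 0.66. Igtp (IRGM3), an immunity-related GTPase, read 1586, 1782 and 2131 in control pools 1, 2 and 3 and 2622, 2160.1 and 2752 in deleted pools 1, 2 and 3. Irgm1, a regulator of other immunity-related GTPases, read 1952, 2069.5 and 1920.0 in the control pools and 2697, 2247 and 2482 in the deleted pools. In both every deleted pool lay above every control pool, with deleted pool 2 closest to the controls. The log2 fold changes were 0.46 ± 0.16 (95% interval 0.10 to 0.82, adjusted p 0.31) and 0.32 ± 0.13 (0.03 to 0.61, adjusted p 0.37). The guanylate-binding protein genes were less even. Gbp3 read 608, 953 and 2466 in the control pools and 1109, 2245 and 2276 in the deleted pools, control pool 3 being above all the rest (0.66 ± 0.47, and 1.23 without control pool 3). Gbp2 read 1698, 1569 and 2204 in the control pools and 2111, 1913 and 1714 in the deleted pools (0.08 ± 0.17), while its dimmer probe set gave 0.45.

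Set side by side, the GTPase genes and the IFIT, OAS and MX genes had medians of 0.39 and 0.33, a difference of 0.06 beside ranges of 0.08 to 0.66 and of -0.40 to 0.73. The difference between the sets was not put to a test, since 4 and 8 genes measured in the same pools are not replicates. The mean deviation of the GTPase genes was -0.49, -0.29 and 0.21 in the control pools and 0.10, 0.19 and 0.28 in the deleted pools, so control pool 3 lay above deleted pools 1 and 2. That of the IFIT, OAS and MX genes was -0.44, 0.04 and 0.04 in the control pools and -0.13, 0.17 and 0.33 in the deleted pools, with deleted pool 1 below control pools 2 and 3. Control pool 1 was the lowest in both sets. With dim probe sets kept, which adds Oas3 and Mx2, the median of the IFIT, OAS and MX genes was 0.17 and the difference 0.22. Their median was 0.20 without control pool 1 and 0.16 without deleted pool 3, while that of the GTPase genes stayed between 0.26 and 0.47 over the alternatives run.

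**Figure D3:**
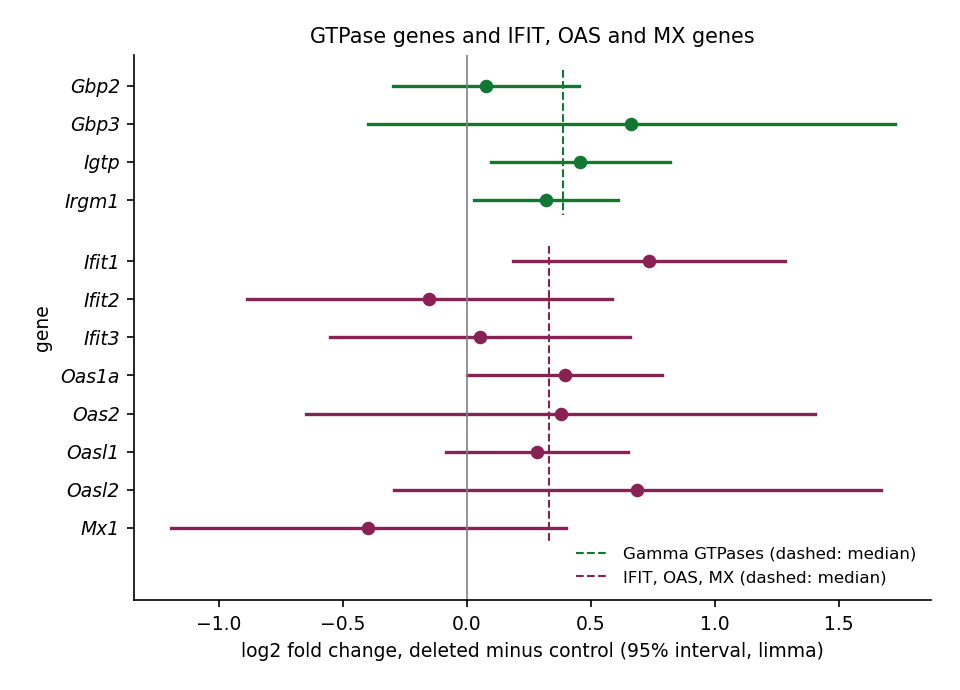
Log2 fold change (deleted minus control) of the 4 GTPase genes of the gamma response (green) and of the 8 tested IFIT, OAS and MX genes (purple), with 95% intervals from limma, and dashed lines at the medians of 0.39 and 0.33. The intervals of Igtp, Irgm1, Ifit1 and Oas1a lie above 0 and those of the other 8 genes include it.

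**Figure D4:**
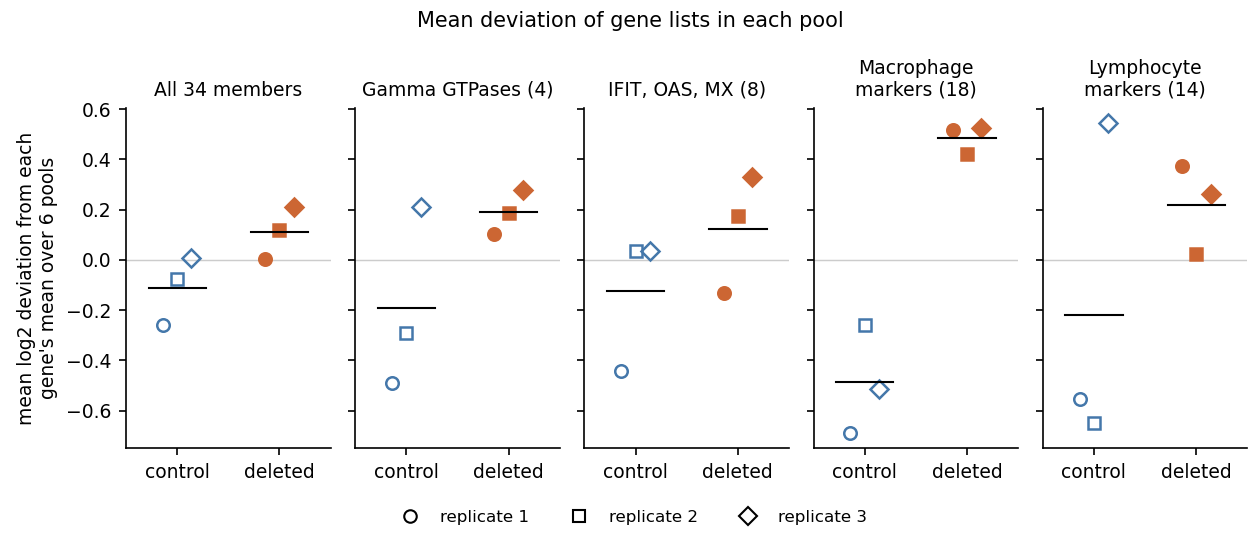
Mean log2 deviation of 5 gene lists from each gene's mean over the 6 pools, for each control pool (open blue) and deleted pool (filled orange), with a line at each group's mean. The groups overlap for the members, the GTPase genes, the IFIT, OAS and MX genes and the lymphocyte markers, where control pool 3 is the highest at 0.54, and they are apart for the macrophage markers.

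The membrane proteins that restrict viral entry and release showed the least difference of the groups in median, 0.07, and in none of the 4 genes were the groups apart. Ifitm3, which blocks fusion of viruses in endosomes, read 21059, 19471 and 26911 in the control pools and 19804, 26160.3 and 29542 in the deleted pools, with overlap (0.16 ± 0.17). The 95% intervals were -0.49 to 0.37 for Ifitm1, -0.27 to 0.24 for Ifitm2 and -0.23 to 0.55 for Ifitm3, so log2 differences above 0.55 or below -0.49 lie outside all 3. Bst2 (tetherin), which holds budding virus at the cell surface and is also a marker of plasmacytoid dendritic cells, read 871, 1056 and 1267 in the control pools and 1463, 1216 and 1586 in the deleted pools. Control pool 3 lay above deleted pool 2, and the log2 fold change was 0.43 ± 0.19 (adjusted p 0.41). Of the defining plasmacytoid markers Siglech lay below the filter. Ccr9, a chemokine receptor, read 180.5, 351 and 377 in the control pools and 661, 474 and 750.2 in the deleted pools, without overlap (1.10 ± 0.34, adjusted p 0.25). Its other probe sets lay below the filter with overlapping pools, at -1.10 to 1.06, and over the alternatives Ccr9 ran from 0.33 to 1.31. Of 9 tested dendritic and plasmacytoid markers, Bst2 included, 8 were positive and 1 negative, with a median of 0.32. The groups were apart in 3 (33.3%, all genes 17.1%). The part of such cells in the Bst2 values was not tested.

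The remaining effectors held the most members with separated groups. Of 7 tested genes, 4 had every deleted pool above the controls and 1 every deleted pool below, together 71.4% beside 17.1% of all genes. The median log2 fold change was 0.44. Rtp4, an interferon-induced chaperone of membrane receptors, had the largest difference and the smallest p of all members. It read 2375, 2309 and 1919 in control pools 1, 2 and 3 and 3009, 4353 and 3939.9 in deleted pools 1, 2 and 3, 1.70-fold higher between the geometric means. The log2 fold change was 0.76 ± 0.16 (95% interval 0.39 to 1.14, adjusted p 0.11), and it passed in limma with array weights (0.78, adjusted p = 0.038). Its second probe set, too dim to be tested, also had every deleted pool above every control, at 1.44. Over its alternatives the adjusted p ran from 0.038 to 0.47.

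Parp9 and Parp14 encode ADP-ribosyltransferase family proteins that act in interferon signalling. Parp9 read 1902, 2099.9 and 1283 in the control pools and 2489, 2495 and 2424 in the deleted pools, with the deleted pools close together and the lowest control, pool 3, far below (0.52 ± 0.19, adjusted p 0.32). Parp14 read 1509, 1361 and 1321 in the control pools and 2056, 1938 and 1688 in the deleted pools, with no overlap (0.44 ± 0.14, adjusted p 0.29). Its other probe set, a dim one, went the opposite way, and the mean over both was -0.23. Xaf1, which promotes apoptosis, read 821, 1027 and 1032 in the control pools and 1078, 1359 and 1935 in the deleted pools, led by deleted pool 3 (0.57 ± 0.23, adjusted p 0.36).

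Isg20, an exonuclease that degrades RNA, was the 1 member with every deleted pool below every control pool. It read 8487, 9703 and 10128 in control pools 1, 2 and 3 and 7704, 8248 and 6981 in deleted pools 1, 2 and 3 (-0.30 ± 0.12, 95% interval -0.57 to -0.04, adjusted p 0.36). Rsad2 (viperin), an antiviral enzyme of lipid-rich membranes, read 5246, 10909 and 3438 in the control pools and 5478, 6616 and 4594 in the deleted pools, with control pool 2 far above the rest. Its log2 fold change was -0.08 ± 0.35, and without control pool 2 it was 0.37. Ifi35, a regulator of interferon signalling, was at -0.12 ± 0.12 with overlapping pools.

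Genes of the gamma response outside the members were also mostly positive and none was called. All 5 tested of 15 other GTPase genes were positive, with a median of 0.22. Irgm2, an immunity-related GTPase, read 756, 902 and 637 in the control pools and 1188, 1202 and 1512 in the deleted pools, with no overlap (0.77 ± 0.19, adjusted p 0.17). It passed in 1 of the 15 alternatives, and its adjusted p ran from 0.045 (without control pool 2) to 0.48. Gbp6 and Gbp7 were at 0.38 and 0.22. Of 19 tested genes among 24 other gamma targets, largely of antigen presentation, 17 were positive, with a median of 0.33. The groups were apart in 7 of them (36.8%, all genes 17.1%), 6 with the deleted pools above. Psmb8, an immunoproteasome subunit, read 1772, 2039 and 1560.0 in the control pools and 3055, 3373 and 2738 in the deleted pools (0.77 ± 0.15, adjusted p 0.067). It passed in 3 of the 15 alternatives, with adjusted p from 0.017 (without control pool 2) to 0.036, and was at 0.33 when averaged with a dim second probe set. Its partner Psmb9, the class I gene H2-K1 and the chemokine gene Cxcl10 were at 0.41, 0.34 and 0.71, each with every deleted pool above every control. Macrophages express these genes as well, and the part of the higher macrophage markers in these values was not tested.

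Other targets of the alpha response were close to evenly split: 17 of 31 tested genes (39 listed) were positive, the median was 0.06, and 0 were called. The groups were apart in 10 (32.3%, all genes 17.1%), 9 of them with the deleted pools above (29.0%, all genes 9.2%). At an unadjusted p under 0.05 in limma, 9 were higher and 1 was lower, where 6.05% of all genes were higher and 6.02% lower. Ly6e, a membrane protein that restricts coronaviruses, read 43950.3, 44611 and 39770.3 in the control pools and 49633, 66240.2 and 62028 in the deleted pools (0.46 ± 0.13, adjusted p 0.22), and Zc3hav1, the antiviral zinc finger protein ZAP, was at 0.37 ± 0.12. Slfn2, a regulator of T cell quiescence, was at 0.80 ± 0.26 with overlapping pools, and at 1.11 with an adjusted p of 0.022 without control pool 3. Ube2l6, the conjugating enzyme for ISG15, read 1615, 3326 and 1509 in the control pools and 1028, 1259.8 and 1146 in the deleted pools, every deleted pool below every control (-0.82 ± 0.28, adjusted p 0.30).

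Markers of other cells in the isolates differed between the groups to different degrees. Of 22 macrophage markers 18 were tested and 8 rose, where 0.649% of all genes were called in either direction. In 14 (77.8%, all genes 9.2%) the groups were apart with the deleted pools above. Cd68 read 1694, 1533 and 1617 in the control pools and 3188, 3219.5 and 3272 in the deleted pools (95% interval of the log2 fold change 0.73 to 1.27, adjusted p 0.0074), and Marco was at 2.26 ± 0.28 (adjusted p 0.0087). Cd68 missed the threshold without deleted pool 1, 2 or 3 (adjusted p = 0.061, 0.072 and 0.064), and Marco without deleted pool 1 or 2 (0.062 and 0.063) and without an intensity trend (0.055). The summed macrophage signal was 151104 to 201190.0 in the control pools and 233199 to 247761 in the deleted pools. Lyz2 was the largest part of that sum and did not share the rise. It read 100179, 128895 and 138065 in the control pools and 100098, 118284 and 123763 in the deleted pools (-0.09 ± 0.15). Of 22 lymphocyte markers 14 were tested and 0 called (2 at an unadjusted p under 0.05), with a median of 0.39 and summed signals of 13913 to 30252 in the control and 22827 to 27026 in the deleted pools. Of 12 endothelial markers 0 were called (1 at an unadjusted p under 0.05), with a median of -0.10, and of 15 tested type II markers 0 were called (1 at an unadjusted p under 0.05), with a median of 0.10. What part these cells have in the members' values was not tested.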

How the data were processed

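Total RNA from 6 pools of isolated type II cells, 3 per genotype, was hybridised to Affymetrix arrays. The deposited values are linear probe set intensities from MAS5, per the submitters' processing notes (no version is named there). MAS5 treats each array alone and gives dim probe sets noisy log ratios. Probe sets were named through GEO's platform annotation, in which 34945 of the 45101 had 1 gene.

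Values were floored at 1 and converted to log2. Array medians differed by at most 0.17 on that scale, under the limit of 0.2 set for shifting them, so they received no further normalization. Probe sets with a mean log2 below the 40th percentile were left out. For each gene the brightest of the probe sets that name it alone was kept, giving 12952 genes. The genotypes entered limma 3.58.1 (R 4.3.3) through lmFit and eBayes, with the prior variance following intensity. Tests were two-sided, and p-values were adjusted by the Benjamini-Hochberg method over all 12952 genes, with a threshold of 0.05. The fit was tested on simulated data. Fold changes are deleted minus control with moderated standard errors.

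The members and the gene lists were chosen with earlier results of these data known. Every member may be named. From each pathway and marker list up to 4 genes with the smallest p, and any past the threshold, may be named, and defining markers are given where a result touches them. Lyz2 is named as the largest part of the summed macrophage signal. Alternatives were quantile normalization, shifting arrays to the same median, adding 16 before log2, a filter at the 60th percentile or none, averaging over probe sets, a prior without the trend, array weights, the replicate number as a block, and each pool left out in turn. The count at an unadjusted p was added after the data were seen. Promoter windows came from RefSeq (GRCm38.p6). Figures were drawn with matplotlib 3.10.9.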

Additional observations from a re-analysis of the deposited data

How the results depend on the processing

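The count of members called higher was 0 under the 15 alternatives except with array weights, where it was 1 (Rtp4), and without control pool 3, where it was 1 (Irf8). With single pools left out it ran from 0 to 1, and the count higher at an unadjusted p under 0.05 ran from 3 (without deleted pool 3) to 12 (without control pool 3), being 4 without control pool 1 and 6 without deleted pool 1 or 2. With array weights it was 16. Over all genes the same count was 784 in the fit reported and 1064 with array weights. Without deleted pool 3 it was 562 and without control pool 3 it was 881. No member was called lower. The median of the members stayed between 0.21 and 0.35. Of the members, 25 kept their direction under every alternative (21 higher, 4 lower) and 9 changed sign under at least 1. Over all probe sets Dhx58 was at 0.16, Eif2ak2 at 0.073 and Parp14 at -0.23. Array weights turned Ifit2 (0.17) and Ifitm2 (0.011), and the median shift Ifitm1 (0.021) and Ifitm2 (0.064). With single pools left out, Ifit2 ran from -0.48 to 0.10, Ifit3 from -0.15 to 0.39, Gbp2 from -0.022 to 0.22, Ifitm1 from -0.24 to 0.055, Ifitm2 from -0.10 to 0.030, Rsad2 from -0.46 to 0.37 and Ifnb1 from -0.55 to 0.027. The cause was not tested.

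The labels do not say whether equal pool numbers share a litter or a day. The deviations of same-numbered pools correlated at 0.07, 0.04 and 0.15, which with 3 pools per group cannot decide it. With the replicate block 0 members were called and an unadjusted p under 0.05 with a higher level was found for 11, while 111 of all genes were called higher and 21 lower, against 81 and 3 without it. Insig1 (adjusted p = 0.026), Psmb8 (0.036) and Ccr7 (0.042) passed under it. Calls over all genes ranged from 15 higher and 0 lower without deleted pool 2 to 184 higher and 293 lower without control pool 2. With array weights they were 186 and 73, and with no intensity trend 29 and 0, when 1 macrophage marker in place of 8 was called. Macrophage markers called ranged from 0 (without deleted pool 1 or 2) to 11 (without control pool 2), and Irf1 was called in 11 of 16 settings, the one reported included. The number of arrays limits the precision, with a median SE of 0.18 over the members.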

Other observations

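The feedback inhibitors of the pathway were mostly higher without a call. All 8 were tested, 7 were positive and the median log2 fold change was 0.14. In 4 of them (50%, all genes 9.2%) every deleted pool lay above every control pool. Ptpn2, a phosphatase that removes the activating phosphate from JAK kinases, read 13734, 14741 and 16300.5 in the control pools and 18159, 19419.9 and 17061 in the deleted pools (0.29 ± 0.11, adjusted p 0.35, limma). Its relative Ptpn1 read 8930.3, 10177 and 8879 in the control pools and 11290.2, 11198 and 10577 in the deleted pools (0.24 ± 0.11, adjusted p 0.40). Of 6 tested adaptor and sensor genes upstream of interferon production, 4 were positive and the median was 0.02. Myd88, the adaptor of most Toll-like receptors, had the smallest p of them and read 5516, 6723 and 6042 in the control pools and 8495, 8058 and 7834 in the deleted pools, without overlap (0.42 ± 0.11, adjusted p 0.20, and 0.049 without control pool 2).

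Among markers of dendritic cells, 9 of 16 were tested and 0 were called, with a median of 0.32. At an unadjusted p under 0.05 (limma) 4 were higher, as were 6.05% of all genes. Ccr7, the receptor that guides dendritic cells and T cells to lymph nodes, read 1502, 979 and 2496 in the control pools and 4476.9, 3316 and 3441 in the deleted pools (1.27 ± 0.30, adjusted p 0.14). It passed in 3 of the 15 alternatives, with adjusted p from 0.0092 (without control pool 3, at 1.61) to 0.042. Flt3 and Xcr1, defining markers of dendritic cells, lay below the filter. Of 12 neutrophil markers 5 were tested and 0 called (2 higher at an unadjusted p under 0.05, all genes 6.05%), with a median of 0.12. S100a8, a calcium-binding protein abundant in neutrophils, read 1887, 1072 and 2225 in the control pools and 4072, 3059 and 2949.9 in the deleted pools, without overlap (1.01 ± 0.26, adjusted p 0.18).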
